A study of Homo sapiens with 6 samples.

Results

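NONO occupancy was compared between control MDA-MB-231 cells, called NC, and MDA-MB-231 cells with NONO knocked down, called NONO-KD. MDA-MB-231 is an established triple-negative breast cancer cell line, which lacks the estrogen receptor, the progesterone receptor and HER2. The assay was CUT&Tag, in which an antibody brings the Tn5 transposase to a protein on chromatin so that the DNA beside it is cut out and sequenced. The labels give the control cells as wild type and the others as NONO knockdown, and the study's methods describe both stable lentiviral shRNA, with a control named Scr, and transient siRNA, with a control named NC, without saying which was used for these libraries. Each group held 1 library, so no p-value was computed, and every difference below describes these libraries. All regions of the authors' peak lists on chromosomes 1 to 22 were taken, 87191 in NC and 43292 in NONO-KD, which is 130483 of the 972622 regions in the 6 lists of the series. The lists of H3T11ph, histone H3 phosphorylated at threonine 11, and of H3K27ac, histone H3 acetylated at lysine 27, served for comparison only. These came from NC and PKM2-KD cells of the same line.

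NONO belongs to the DBHS family of nuclear proteins together with SFPQ and PSPC1, which pair with one another and bind both RNA and DNA. NONO is a core protein of paraspeckles, the nuclear bodies built on the long noncoding RNA NEAT1. It is also known from transcription through CREB and its CRTC coactivators, from pre-mRNA splicing and from the joining of broken DNA ends. Its name records an octamer motif of DNA. The gene for NONO lies on chromosome X and is outside the chromosomes described here, and peak lists carry no protein or RNA level, so the knockdown itself was not checked here.

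The lists were called differently, which touches every comparison of NC with NONO-KD. In NC, 94.5% of the regions were exactly 269 bp wide, the narrowest width of that list. In NONO-KD the narrowest width was 98 bp, 2.06% of the regions had it, and the median width was 123 bp. NC regions covered 24.7 Mb and NONO-KD regions 5.85 Mb. The recovered depth was alike, at 3.34 fragments per kb in NC and 2.84 in NONO-KD. These values hold only if the narrowest width is the fragment length that the caller used. The form of the lists and the knockdown cannot be told apart, so overlaps are also given for 200 bp drawn around each summit, the position of the highest pileup in a region.

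Promoters that held a NONO summit are shown first, since NONO summits were in excess around gene starts in both lists. The sequences are the 250 bases before the transcription start from RefSeq (GRCh38.p14, the same assembly as the hg38 of the lists), written 5′ to 3′ on the strand of the gene, and they were picked by the highest fold within each class, with a single chromosome left out of this choice as given under the processing. Capitals mark exact matches on either strand to any of 5 motifs. The GC box was searched as GGGCGG and the box named for its letters as CCAAT. For the TATA box the search used TATAAA. The cyclic AMP response element was searched as TGACGTCA and the octamer as ATGCAAAT. With a summit in NC alone, the 3 promoters shown were those of GAR1, a protein of H/ACA ribonucleoproteins, on the plus strand at chr4:109815260-109815509, TMEM184C on the plus strand at chr4:147617147-147617396, and the zinc finger gene ZNF333 on the plus strand at chr19:14689798-14690047.
GAR1: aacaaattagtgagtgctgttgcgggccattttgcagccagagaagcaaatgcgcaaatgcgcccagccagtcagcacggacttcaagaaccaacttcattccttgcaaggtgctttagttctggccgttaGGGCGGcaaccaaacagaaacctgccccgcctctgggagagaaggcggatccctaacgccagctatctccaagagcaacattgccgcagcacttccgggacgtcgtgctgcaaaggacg
TMEM184C: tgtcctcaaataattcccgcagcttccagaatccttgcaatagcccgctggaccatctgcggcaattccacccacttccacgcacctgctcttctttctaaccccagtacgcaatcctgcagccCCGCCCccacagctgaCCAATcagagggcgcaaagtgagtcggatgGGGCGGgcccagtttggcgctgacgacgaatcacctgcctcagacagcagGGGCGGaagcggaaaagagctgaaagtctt
ZNF333: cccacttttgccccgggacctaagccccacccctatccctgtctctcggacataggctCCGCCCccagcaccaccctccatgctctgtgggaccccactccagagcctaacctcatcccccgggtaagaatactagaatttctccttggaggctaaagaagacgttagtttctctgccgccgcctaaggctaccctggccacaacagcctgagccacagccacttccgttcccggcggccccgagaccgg
The fold at the summit is the enrichment over the background of the same library, with a constant added to pileup and background. It was 262 for GAR1, 190 for TMEM184C and 173 for ZNF333. Counted from the start, the summits lay at -212, -151 and -29. All 3 held a GC box in these bases, and TMEM184C also held a CCAAT box.

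With a summit in NONO-KD alone, the 3 promoters shown were those of ZNHIT1, a subunit of the SRCAP chromatin remodeler, on the plus strand at chr7:101217915-101218164, NOXRED1 on the minus strand at chr14:77423524-77423773, and EID2B on the minus strand at chr19:39532853-39533102.
ZNHIT1: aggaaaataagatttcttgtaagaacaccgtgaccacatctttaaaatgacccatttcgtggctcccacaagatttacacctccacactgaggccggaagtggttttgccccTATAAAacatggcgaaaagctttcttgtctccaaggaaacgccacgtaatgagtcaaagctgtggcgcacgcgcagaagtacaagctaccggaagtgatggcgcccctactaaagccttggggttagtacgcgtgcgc
NOXRED1: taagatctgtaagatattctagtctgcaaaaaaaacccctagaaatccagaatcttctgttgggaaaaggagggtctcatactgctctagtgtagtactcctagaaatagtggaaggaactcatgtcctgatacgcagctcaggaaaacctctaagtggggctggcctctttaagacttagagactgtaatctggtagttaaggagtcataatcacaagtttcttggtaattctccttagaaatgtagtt
EID2B: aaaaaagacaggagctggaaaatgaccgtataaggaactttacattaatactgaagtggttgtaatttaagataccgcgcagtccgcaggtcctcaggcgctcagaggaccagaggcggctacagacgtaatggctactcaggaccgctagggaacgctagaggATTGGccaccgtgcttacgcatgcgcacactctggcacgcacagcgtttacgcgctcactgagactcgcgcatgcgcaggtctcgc
The fold was 136 for ZNHIT1, 101 for NOXRED1 and 96.2 for EID2B, at summits -135, -113 and -83 from the start. None of the 3 held a GC box, ZNHIT1 held a TATA box and EID2B a CCAAT box. ZNHIT1 is not without NONO in NC: an NC region with a fold of 129 had its summit 351 bp from the NONO-KD summit, outside these bases.

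With a summit in both lists, the 3 promoters shown were those of SEPTIN10, a GTP-binding cytoskeletal protein, at chr2:109613967-109614216, and of the zinc finger genes ZNF682 at chr19:20039506-20039755 and ZNF235 at chr19:44305026-44305275, all on the minus strand.
SEPTIN10: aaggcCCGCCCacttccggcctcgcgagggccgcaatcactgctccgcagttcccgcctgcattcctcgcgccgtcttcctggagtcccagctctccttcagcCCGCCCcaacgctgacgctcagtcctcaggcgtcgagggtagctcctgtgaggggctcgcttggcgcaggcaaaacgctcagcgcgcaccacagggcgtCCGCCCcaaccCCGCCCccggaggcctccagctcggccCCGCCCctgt
ZNF682: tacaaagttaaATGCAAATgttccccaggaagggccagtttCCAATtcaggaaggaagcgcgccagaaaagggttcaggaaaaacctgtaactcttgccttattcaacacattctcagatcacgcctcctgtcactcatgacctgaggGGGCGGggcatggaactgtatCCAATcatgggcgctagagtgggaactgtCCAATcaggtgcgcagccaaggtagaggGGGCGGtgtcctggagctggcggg
ZNF235: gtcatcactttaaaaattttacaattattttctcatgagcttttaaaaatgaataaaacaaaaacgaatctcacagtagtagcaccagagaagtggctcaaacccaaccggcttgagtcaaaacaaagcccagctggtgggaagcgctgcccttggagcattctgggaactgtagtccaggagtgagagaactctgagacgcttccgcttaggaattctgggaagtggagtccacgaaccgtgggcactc
The fold was 60.3 in NC and 113 in NONO-KD at SEPTIN10, 129 and 48.4 at ZNF682, and 38.4 and 46.2 at ZNF235. The order of the lists differed between promoters, since ZNF682 had the higher fold in NC and SEPTIN10 in NONO-KD. SEPTIN10 held 5 GC boxes, ZNF682 held an octamer, 3 CCAAT boxes and 2 GC boxes, and ZNF235 held none of the motifs.

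Over all 33725 promoters of the RefSeq table on these chromosomes, counted on 250 bases before and 50 after the start, a summit lay in 1352 in NC alone, in 506 in NONO-KD alone and in 80 in both. These promoters were rich in G and C. The median GC content was 65.3% with a summit in NC alone, 63.7% in NONO-KD alone and 65.3% in both, against 58.7% for all promoters. A GC box was in 68.9% of the promoters of NC alone, 67.2% of NONO-KD alone and in 60 of the 80 of both, against 45.0% of all promoters. The TATA box ran the other way, with 3.48% in NC alone, 8.50% in NONO-KD alone and 2 of the 80 of both, against 11.6%. The cyclic AMP response element, to which CREB binds, was in 2.81% (95% Wilson interval 2.05 to 3.83), 3.16% (1.96 to 5.07) and 3.75% (1.28 to 10.5), against 1.87%. The octamer was in 1.55% (1.02 to 2.36), 1.58% (0.803 to 3.09) and 2 of 80, against 1.75%, so its share among promoters with NONO could not be told from that among all promoters at these counts. Intervals here and below cover counting error only.

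The first comparison asked how many NONO regions each list held. The NONO-KD list was 49.7% as long as the NC list (95% interval 49.1 to 50.2). The difference was not even over the height of the summits. The number of fragments stacked at each summit, recovered from the fold and the −log10 p, had a median of 57 in NC and 46 in NONO-KD. At 40 to 80 fragments NC held 19333 regions and NONO-KD 17585, or 91.0%. At 80 to 160 fragments the lists held 21109 and 6991, or 33.1%, and at 160 or more 12736 and 232, or 1.82%. Recovered pileups were checked against the deposited values only in rows with a −log10 p under 200. By fold the order turned, with a median of 23.9 in NC and 32.7 in NONO-KD. Pileup and fold both depend on the fragment length that the caller used, 269 bp against 98 bp if the narrowest width is that length, so heights are not on 1 scale in the lists. Among regions at least 2 times the narrowest width of their list, NC held 1461 and NONO-KD 2295, which is 157% and reverses the direction.

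**Figure D1:**
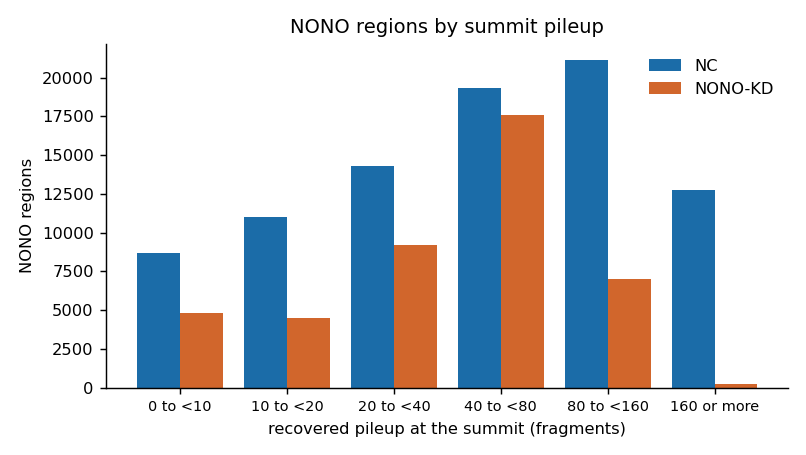
Number of NONO regions on chromosomes 1 to 22 (vertical axis) by the recovered number of fragments at the summit (horizontal axis), with 1 bar per library. The lists were close at 40 to 80 fragments (19333 in NC, 17585 in NONO-KD), and at 160 or more NC held 12736 regions against 232.

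Few regions of 1 list were found again in the other. A NONO-KD region overlapped 1775 NC regions by at least 1 bp, which is 2.04% (1.94 to 2.13). The share of chromosome length within reach of an overlap was 0.606%, so regions met 3.36 times as often as that length alone gives. In the other direction 1920 NONO-KD regions, or 4.43% (4.25 to 4.63), overlapped an NC region. With 200 bp around each summit the shares were 1.76% and 3.57%, which is 2.94 and 2.95 times the length in reach. Of the summits, 897 NC summits had a NONO-KD summit within 100 bp, and the median distance from an NC summit to the nearest NONO-KD summit was 18503 bp. For comparison, 5.76% of H3T11ph NC regions, redrawn in the same way, overlapped H3T11ph in PKM2-KD, at 11.7 times the length in reach.

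Both NONO lists met the H3T11ph lists of NC and of PKM2-KD cells more often, for the length in reach, than they met each other. With 200 bp around summits, 2.53% of NONO NC regions overlapped H3T11ph NC, at 4.38 times the length in reach. Of NONO-KD regions 4.05% did, at 7.01 times. With H3T11ph of PKM2-KD cells the values were 4.70 times for NONO NC and 5.53 times for NONO-KD. The 10 bins of 1 Mb with most NONO-KD regions were then left out, a choice made after the data were seen. The values were 4.24 and 5.35 times with H3T11ph NC, and 4.64 and 4.78 times with H3T11ph PKM2-KD. For NC regions in NONO-KD it was 2.77 times. In the full lists, with those 10 bins included, regions that the NONO lists shared were more often on H3T11ph than the others. Most of the shared regions were not on it. Of the 1538 NC regions found again, 28.9% (26.7 to 31.2) overlapped an H3T11ph region of NC or PKM2-KD cells, and of the 85653 not found again 3.79% (3.66 to 3.92) did. In NONO-KD the shares were 29.8% (27.6 to 32.1) and 4.73% (4.53 to 4.94). Without the 10 bins 1386 NC regions were found again, and their share on H3T11ph was not computed. The median summit pileup was 56 fragments among the NC regions found again and 57 among the others.

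The second comparison asked where in the gene map the regions lay. A region was placed by its summit at a gene end (within 1 kb of either end of a protein-coding gene), otherwise in a gene body, otherwise as intergenic. In NC, 6.06% (5.90 to 6.22) of the regions were at gene ends, 45.8% (45.5 to 46.2) in gene bodies and 48.1% (47.8 to 48.4) intergenic. In NONO-KD the shares were 4.04% (3.86 to 4.23), 41.1% (40.6 to 41.5) and 54.9% (54.4 to 55.4). The chromosome length in these classes was 2.40%, 40.7% and 56.9%, so gene ends held 2.53 times their share of length in NC and 1.69 times in NONO-KD. NONO-KD regions were placed closer to the shares of length than NC regions in all 3 classes. As a percent of NC, NONO-KD held 33.2% (31.4 to 35.0) at gene ends, 44.5% (43.7 to 45.3) in gene bodies and 56.7% (55.8 to 57.6) between genes. The share at gene ends was 2.01 points higher in NC (Newcombe interval 1.77 to 2.25). The median distance from a summit to the nearest gene end was 29097 bp in NC and 50272 bp in NONO-KD. NC regions at gene ends were found again in 3.71% (3.23 to 4.26), those in gene bodies in 1.73% (1.60 to 1.86) and those between genes in 2.12% (1.99 to 2.26).

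**Figure D2:**
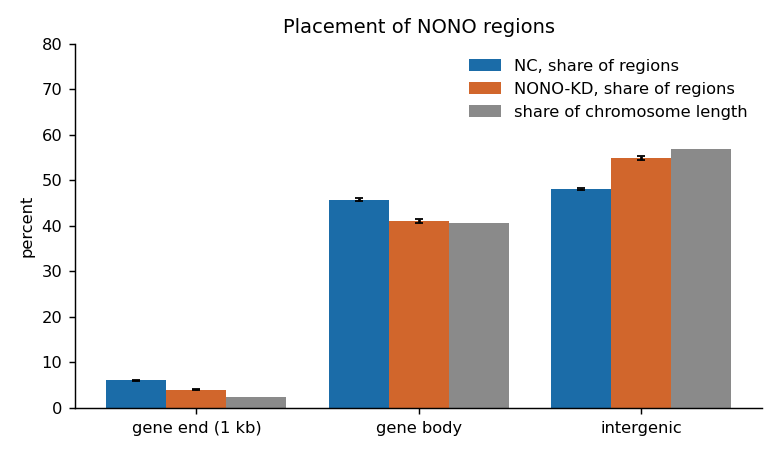
Share of NONO regions (percent, vertical axis) at gene ends, in gene bodies and between genes for the NC and NONO-KD libraries, with 95% Wilson intervals, beside the share of chromosome length in grey. Gene ends held 6.06% of NC and 4.04% of NONO-KD regions, against 2.40% of length.

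Summits were in excess over the flanking sequence at the starts of genes and not at their 3′ ends. This profile was added after the data were seen, for the 15101 protein-coding genes with a start in the promoter table. Summits were counted gene by gene, so a summit near several starts or 3′ ends was counted at each of them. In NC, 2080 such counts lay within 500 bp of a start, which is 2.75 times the number per 100 bp found 4 to 5 kb away. In NONO-KD 685 did, at 2.69 times. Within 500 bp of 3′ ends lay 840 counts in NC and 276 in NONO-KD, and the same ratio was 0.966 and 0.890. The ratios at starts were close in the lists over all genes but not by gene density. For genes in bins of 1 Mb with fewer than 5 genes the ratio was 3.68 in NC and 2.45 in NONO-KD, and with 20 or more genes it was 2.54 and 3.21, a difference that was not tested. H3T11ph in NC had 5.57 times at starts. Counted in this way, summits were more often before the start than after it. Within 500 bp on each side, NC had 1185 before and 895 after, and NONO-KD 464 before and 221 after. A summit between neighbouring starts that point apart is counted before each of them, and its part in this difference was not tested.

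**Figure D3:**
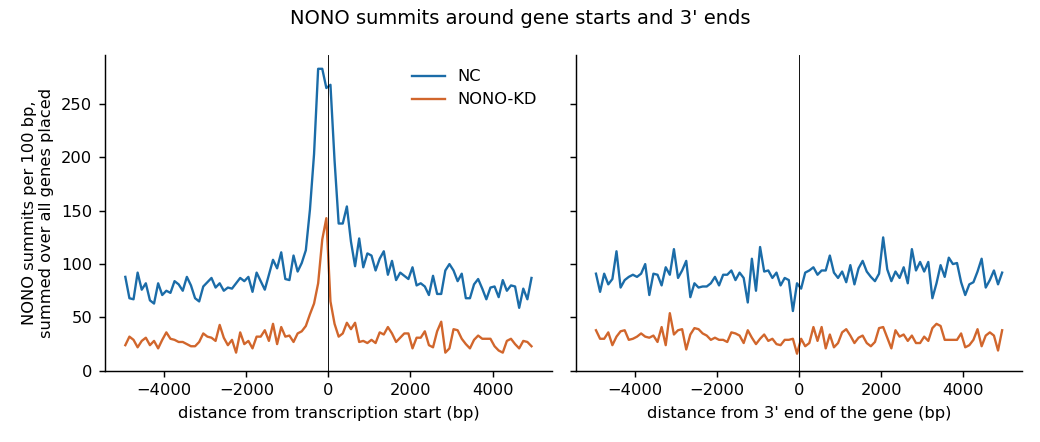
NONO summits per 100 bp, summed over the 15101 genes placed (vertical axis), by distance in bp from the transcription start (left) and from the 3′ end (right), with negative distances upstream and 1 line per library. Both libraries rise at the start, to 283 summits per 100 bp in NC and 143 in NONO-KD, and neither rises at the 3′ end.

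At the level of genes, 4677 of 18973 protein-coding genes (24.7%) carried NONO within 1 kb of an end in NC alone, 1136 (5.99%) in NONO-KD alone and 809 (4.26%) in both. If the lists had fallen on genes independently, 562 genes would have had both. Of the NONO-KD genes 41.6% were also NC genes, and of the NC genes 14.7% were also NONO-KD genes. Of the 809 genes, 248 (30.7%, 27.6 to 33.9) held NC and NONO-KD regions that overlapped, and the others held them at different places. Counts of NC regions reached 5 at a single gene and of NONO-KD regions 3.

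Among genes with a region in NC alone, GAR1 had the highest fold (262, at a pileup of 497 fragments), from the region chr4:109815209-109815477 in its promoter. A region between the 3′ end of PRR35 and the start of NHLRC4 followed at 226, ACKR4, an atypical chemokine receptor, at 216, and HPCAL1, a neuronal calcium sensor protein, at 215. FANCI, of the Fanconi anemia DNA repair pathway, had 205, and FAM180B 203. CEP295 and TAF1D shared a region with a fold of 196. POLR2F, a subunit of RNA polymerases, had 194, PYCARD, the adaptor of inflammasomes, 194, and NPC1L1, which takes up cholesterol in the gut, 192.

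Among genes with a region in NONO-KD alone, PEX2, a peroxisome assembly protein, had a fold of 142, and the region shared by RDH10, a retinol dehydrogenase, and RPL7, a ribosomal protein, had 142. AIG1 had 131 and WNT5B, a Wnt ligand, 131. The hair keratin gene KRT33B had 130 from the region chr17:41370013-41370134, and CAP2, an actin regulator, had 124. COL27A1, a fibrillar collagen, had 115, ITIH1 110, RBPJL 110 and ZUP1 105. These folds were all lower than those of the 10 leading NC genes, but the fold scales of the lists are not the same.

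Among genes with a region in both, the shared region of PLOD3, a lysyl hydroxylase of collagen, and ZNHIT1 led with 129 in NC and 136 in NONO-KD. GBP1, an interferon-induced GTPase, had 115 and 78.2, with summits 75 bp apart, the closest of the 10. H2BC10, a histone H2B gene, had 92.7 and 82.1 with summits 1020 bp apart, and ACTL9 had 108 and 82.9 with summits 684 bp apart. KRTAP4-6, a hair keratin-associated protein, had 137 and 76.7, and DEAF1, a transcription factor, 103 and 69.1. At MICALL2 (91.1 and 90.2), CALML6 (111 and 66.5), RBP3 (65.8 and 96.8) and ERC1 (94.8 and 64.7) the summits were farther apart, from 2750 bp at CALML6 to 504345 bp at ERC1, so different parts of those genes were marked.

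Inside gene bodies, NC regions were most numerous in CDH4, which encodes R-cadherin, with 167 in NC and 38 in NONO-KD. GSE1 held 81 and 13, MAD1L1, of the spindle checkpoint, 75 and 18, and CMIP 58 and 5. RANBP2, a nuclear pore protein, ranked among them with 64 and 33, but its span of 1123 kb in the table is doubtful and takes in SEPTIN10 and other genes, so these are not read as regions of the RANBP2 body. Per 100 kb of gene CDH4 had 24.3 NC regions and CMIP 21.7. The genes with most NONO-KD regions were longer. PTPRN2 held 37 in NC and 50 in NONO-KD, DLG2, a synaptic scaffold, 43 and 39, CDH4 167 and 38, CNTNAP2, a neurexin family protein, 49 and 37, and EYS, of the retina, 34 and 35. Of these genes, PTPRN2 and EYS had more regions in NONO-KD than in NC.

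The gene lists of NONO biology were read against 28.9% of all genes with a region within 1 kb of an end in NC and 10.3% in NONO-KD. NEAT1 and MALAT1, which are not protein-coding, were added to the genes for their list. Of 16 DBHS and paraspeckle genes, 6 had a region in NC and 6 in NONO-KD, and 3 of them in both. NEAT1, the RNA that holds paraspeckles together, had 5 regions in NC within 1 kb of an end against 1 in NONO-KD, and 14 against 5 within 5 kb, while the highest fold was 25.4 in NC and 36.5 in NONO-KD. MALAT1, the neighbouring nuclear RNA, had 2 and 1, with highest folds of 44.2 and 12.9. SFPQ, the main partner of NONO, had 1 region in each list, with a fold of 152 in NC and 36.7 in NONO-KD. PSPC1, the third DBHS protein, had none within 1 kb in NC and 1 in NONO-KD, with a fold of 24.2. DAZAP1 had 2 and EWSR1 and CPSF6 had 1 each, all in NC alone, while RBM14 and TAF15 had 1 each in NONO-KD alone.

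Of 15 partner and target genes of NONO, 7 had a region in NC and 0 in NONO-KD. A count of 0 of 15 allows up to 3 of 15, so it could not be told from the 10.3% of all genes. Within 5 kb of an end, 9 had a region in NC and 4 in NONO-KD, beside 61.0% and 31.0% of all genes. The 7 were CREB1, the factor of the cyclic AMP response, its coactivators CRTC1 (fold 65.8), CRTC2 (3.48) and CREBBP (50.5), the clock gene PER1 (11.2), TOP1 (2.96), which encodes a topoisomerase, and PKM (26.5), which encodes the pyruvate kinases PKM1 and PKM2. EGFR, EP300, SOX6 and WWTR1 had none within 1 kb of an end in either list. Inside their bodies were 13, 3, 20 and 6 regions in NC and 4, 2, 10 and 3 in NONO-KD. Over all gene bodies NONO-KD held 44.5% of NC, and these counts were not adjusted for gene length. Of 12 genes of DNA end joining, 4 had a region in NC and 2 in NONO-KD. XRCC4, a ligase cofactor, had 1 in each list with folds of 66.3 and 40.7, and PAXX 1 in each with 21.2 and 20.4, while TP53BP1 and RNF8 had theirs in NC alone.

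Of 16 mesenchymal and matrix genes, 8 had a region in NC and 0 in NONO-KD, which allows up to 18.8%. These were the transcription factors SNAI2 (fold 111), TWIST2 (92.7) and TWIST1 (4.21), the matrix protein SPARC (81.6), the kinase receptor AXL (44.7), the collagen cross-linker LOX (33.2), the urokinase receptor PLAUR (15.3) and the intermediate filament protein VIM (13.0). Of 16 focal adhesion genes, 9 had a region in NC and 2 in NONO-KD. ITGA3, an integrin, was in both with folds of 131 and 35.5, ITGB1 was in NONO-KD alone with 12.6, and ACTN1 (101), PTK2 (49.7), ACTN4 (48.1), BCAR1, ILK, ZYX, TLN1 and FERMT2 were in NC alone. Of 9 genes that the study names as lowered by both knockdowns, 8 had a region within 5 kb in NC and 4 in NONO-KD. The study chose this list itself from other samples. Within 1 kb, 5 had a region in NC and 0 in NONO-KD, which allows up to 33.3%. The 5 were CCN2 (35.6), CDKN1A (27.4), ADAMTSL4 (13.1), VDAC1 (7.26) and FERMT2 (5.40). MATN2, MCAM, IL11 and RCN1 had none within 1 kb in either list.

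Of 10 histone acetyltransferase genes, 5 had a region in NC and 1 in NONO-KD. KAT5, which encodes TIP60, had 2 regions in NC, the higher with a fold of 6.71, and none in NONO-KD. KAT7 had 3 regions with a highest fold of 105, KAT6A was in NONO-KD alone (22.7), and EP300 had none within 1 kb in either list. Housekeeping groups were counted in the same way. Of 18 ribosomal protein genes, 10 had a region in NC and 3 in NONO-KD, of 16 glycolysis genes 7 and 2, and of 15 splicing factor genes 6 and 2. HNRNPA1 was in NONO-KD alone, with a fold of 20.5, and SRSF2 in both, with 78.7 and 12.3. Of 18 genes of other tissues, such as ALB and INS, 5 had a region in NC and 3 in NONO-KD, so a region at a gene end was not limited to genes of this cell type. The cell markers were read from H3K27ac at gene ends. All 8 basal-type markers were acetylated in both H3K27ac lists, and so were 7 of 8 luminal markers and 5 of 18 genes of other tissues, beside 11115 of all 18973 protein-coding genes, so presence of a peak did not separate luminal from basal markers. Of these markers, 4 of the 8 basal and 2 of the 8 luminal had a NONO region in NC, and 3 and 0 in NONO-KD.

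The third comparison asked whether NONO lay at acetylated genes. Of 11115 genes with an H3K27ac region within 1 kb of an end in both H3K27ac lists, 34.2% (33.3 to 35.0) had a NONO region in NC, against 18.1% (16.7 to 19.6) of 2607 genes without one in either list. The difference was 16.1 points (Newcombe interval 14.3 to 17.7). In NONO-KD the shares were 11.8% (11.2 to 12.4) and 6.67% (5.78 to 7.70), a difference of 5.08 points (3.91 to 6.17). As a ratio the shares differed by 1.89 times in NC and 1.76 times in NONO-KD. Among genes with NONO in NC, 84.3% of the acetylated and 87.7% of the others had no region in NONO-KD, a difference of -3.41 points (-6.32 to 0.0487).

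The fourth comparison set the lists side by side along chromosomes. NONO-KD held fewer regions than NC on all 22 chromosomes, from 35.2% of NC (33.3 to 37.2) on chromosome 17, 36.3% (34.3 to 38.3) on 19 and 38.5% on 16 and 22, to 58.3% (55.8 to 61.0) on 6 and 63.0% (60.2 to 65.8) on 5. NC regions followed gene density closely, with 78.7 per Mb on chromosome 19, which has 24.1 protein-coding genes per Mb, and 19.7 per Mb on chromosome 4, which has 4.02. NONO-KD had 28.5 and 10.9 per Mb there. Across the 22 chromosomes, Pearson's r with genes per Mb was 0.93 for NC, 0.81 for NONO-KD and -0.65 for NONO-KD as a percent of NC (Spearman's rho 0.78, 0.53 and -0.63). Without chromosome 19 these were 0.84, 0.58 and -0.67 (rho 0.75, 0.46 and -0.58), so the relation of NONO-KD with gene density rested in part on that chromosome. The H3T11ph ratio of PKM2-KD to NC also fell with gene density, at r -0.69 (rho -0.47), and at -0.40 (rho -0.39) without chromosome 19, where it was 70.4%. These describe 22 points that share 2 libraries, and no p-value was computed.

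**Figure D4:**
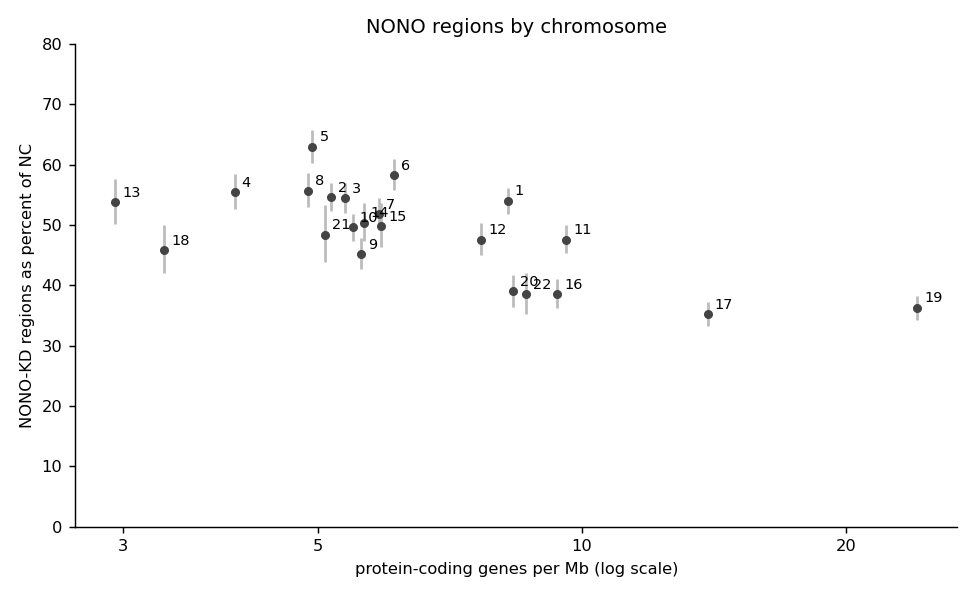
NONO-KD regions as a percent of NC (vertical axis, bars are 95% counting intervals) against protein-coding genes per Mb (horizontal log axis) for chromosomes 1 to 22, each point labelled with its chromosome. Chromosome 5 is highest at 63.0%, with bins without genes in which NONO-KD exceeded NC included. Chromosomes 17 and 19, the densest in genes, are at 35.2% and 36.3%.

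The same gradient was steeper in bins of 1 Mb. In 381 bins without a protein-coding gene, NC had a mean of 20.1 regions and NONO-KD 16.5, and NONO-KD held 82.0% of NC (79.3 to 84.8). With 1 to 4 genes it held 60.1% (58.9 to 61.4), with 5 to 9 genes 48.9%, with 10 to 19 genes 39.2% (38.1 to 40.3), and in the 213 bins with 20 or more genes 30.9% (29.9 to 31.9), where the means were 69.9 and 21.6. In these bins H3T11ph ran in another order, with PKM2-KD at 56.4% of NC where there was no gene and between 88.0% and 92.8% in the other classes. Without the 10 bins with most NONO-KD regions, H3T11ph fell from 41692 to 40070 regions in NC and from 35720 to 35169 in PKM2-KD. The H3T11ph ratio in the remaining bins without genes was not computed. The gradient for NONO was found in every band of summit pileup, with NONO-KD as a percent of NC highest without genes and lowest with 20 or more, and without a reversal between neighbouring classes except at 160 fragments or more (1.56% with 5 to 9 genes and 1.67% with 10 to 19). At 40 to 80 fragments, where the lists were nearly equal in number, it ran from 140% (130 to 151) without genes to 53.7% (50.7 to 56.8) with 20 or more. With the NC list shortened to the length of NONO-KD by −log10 p it ran from 223% to 61.5%, so bins without genes then held more NONO-KD regions than NC regions.

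**Figure D5:**
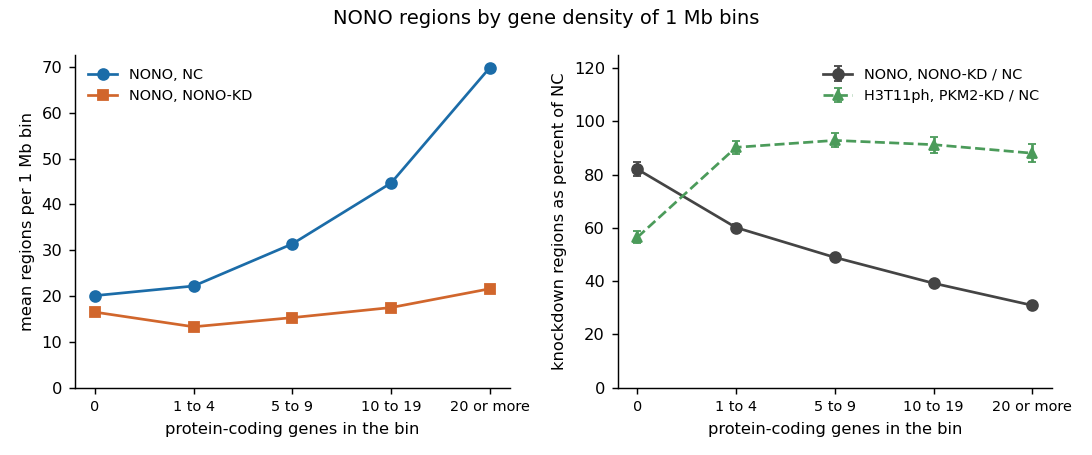
Left, mean NONO regions per 1 Mb bin (vertical axis) by the number of protein-coding genes in the bin, for NC and NONO-KD. Right, knockdown regions as a percent of NC with 95% counting intervals for NONO and for H3T11ph: NONO falls from 82.0% to 30.9% with gene number, and H3T11ph is at 56.4% without genes and at 88.0% or more elsewhere. Without the 10 bins with most NONO-KD regions, not drawn, the NONO value without genes was 71.7%, and that of H3T11ph was not computed.

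Gene starts themselves showed no such order. A summit was again counted at each start it lay near. Within 500 bp of starts, NONO-KD held 32.6% of NC (24.4 to 43.6) for genes in bins with fewer than 5 genes, 37.6% (31.4 to 45.0) with 5 to 9, 28.7% (24.2 to 34.1) with 10 to 19 and 33.5% (29.4 to 38.2) with 20 or more. Over promoters, NONO-KD as a percent of NC was lower in those richer in G and C. In 5 classes of about equal size, from the lowest GC content to the highest, it was 67.5% (41.6 to 109), 56.5% (42.2 to 75.6), 42.4% (35.1 to 51.2), 37.9% (32.0 to 44.9) and 36.0% (29.9 to 43.3). GC content and gene density go together, and among promoters at or over the median GC the ratio was 39.5% in bins with under 10 genes and 36.7% in denser bins, with intervals that overlapped. Among promoters under the median it was 61.6% (47.0 to 80.6) and 45.3% (35.2 to 58.3).

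The 5 bins with most NC regions were close to chromosome ends, and 4 of them held 23 to 46 genes. On chromosome 19, 278 NC and 51 NONO-KD regions lay between positions 1000001 and 2000000, a bin with 38 genes that include STK11, GPX4, POLR2E and DAZAP1. The first Mb of chromosome 11, with HRAS, IRF7, the IFITM genes and DEAF1, held 210 and 48. The last bins of chromosome 20 held 203 and 48 (61000001 to 62000000, counted with 1 gene and mostly taken up by CDH4), 185 and 37 (62000001 to 63000000) and 191 and 52 (63000001 to 64000000). NONO-KD held between 18.3% and 27.2% of NC in these bins.

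The bins with most NONO-KD regions held no gene, and those named here lie in the centromeric parts of the hg38 assembly. On chromosome 1 they held 156 NONO-KD and 117 NC regions (123000001 to 124000000) and 186 and 110 (124000001 to 125000000), on chromosome 19 184 and 129 (26000001 to 27000000), on chromosome 5 165 and 81 (49000001 to 50000000) and on chromosome 6 154 and 86 (59000001 to 60000000). NONO-KD was at 133% to 204% of NC. Summits there were low, with median pileups of 6 to 10 fragments in NONO-KD against 46 over the list. H3T11ph in NC also had many regions there, from 137 to 214 per bin. Of the NC regions in the 10 bins with most NONO-KD regions, 19.8% were found again in NONO-KD, against 1.84% elsewhere. Where regions are dense, more overlaps arise from density alone. The length in reach within these bins was not computed, so these shares are not compared with it. How the authors placed reads of repeated sequence is not given in the sources used here.

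Few bins held more NONO-KD than NC regions, but the NONO-KD list was 49.7% as long as the NC list. With lists of equal length, NONO-KD held 116% of NC (113 to 119) in bins with 1 to 4 genes. With 5 to 9 genes it then held 94.7%, and with 20 or more 61.5%. In the full lists, 2566 bins had at least 20 regions in both lists together. Of these, 178 (6.94%) had more NONO-KD than NC regions, 70 of them without genes, and in 164 NONO-KD had less than 25% of NC. The median number of genes was 1 in the former and 13 in the latter. By ratio the highest were a bin of chromosome 1 that holds BRINP3 (4 NC and 19 NONO-KD regions), 3 bins of centromeric sequence on chromosome 7 (14 and 43, 23 and 66, 22 and 54) and a bin of chromosome 13 that holds DACH1 (6 and 14). The lowest were on chromosome 9 with HSPA5 and MAPKAP1 (60 and 6), on 4 with RFC1 and UGDH (37 and 4), on 18 with CEP192 (37 and 4), on 16 with NQO1 and NFAT5 (46 and 5) and on 21 with CXADR and BTG3 (24 and 3). Across the 2784 bins the counts of NC and NONO-KD had a Pearson r of 0.58 and a Spearman rho of 0.64, and without the 10 bins with most NONO-KD regions 0.66 and 0.64. The number of genes in a bin had a Spearman rho of 0.62 with NC and 0.31 with NONO-KD.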

How the data were processed

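CUT&Tag regions were taken from the narrowPeak list that the authors deposited for each single library. The authors' score is 10 times −log10 q without its decimals, the deposited fold is a ratio of the summit pileup to the background of the same library, and the deposited p and q are −log10 values, used to filter and rank within a list. The submitters' processing notes name the build hg38, FastQC 0.11.9, cutadapt 1.18, SAMtools 1.3.1, MACS2 2.1.1.20160309 and DESeq2. The aligner, control and duplicate handling are not given in the sources used here. Groups came from the sample titles.

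Genes came from a RefSeq table of GRCh38.p14, in which 18973 protein-coding genes lay on chromosomes 1 to 22 after 153 genes on scaffolds were dropped because their positions restart. Summit pileups were recovered from fold and −log10 p. Recomputed values came within 0.002 of the deposited ones in 100% of the NONO rows with −log10 p under 200. These were 67803 of 87191 rows in NC and 40298 of 43292 in NONO-KD. The other rows had a higher −log10 p and were not checked in this way. The recovery was also tested on simulated data. Overlaps needed 1 bp. Shares have 95% Wilson intervals and differences Newcombe intervals, which cover counting error only, and a count of 0 allows 3 counts. Length in reach is the share of chromosome length on which a region of the same width would overlap the other list. No test between conditions applies with 1 library per group. Named genes were, per class, the 10 with the highest fold (for both lists, the highest lower fold), the 5 with most regions in the body and the members of the gene lists, and bins were the 5 with most regions or extreme ratios. Promoters printed were the 3 with the highest fold per class, not on chromosome 8. The profile around starts, the counts by gene density within filters, the GC classes and the H3T11ph overlap of shared regions were added after the data were seen. Members, lists and rules were chosen with earlier results of these data known. Python 3.11.15, pandas 2.3.3, numpy 2.4.6, scipy 1.17.1 and matplotlib 3.10.9 were used. Alternatives were a −log10 q of at least 5, lists of equal length, wider regions, a pileup of at least 20, other windows and 5 Mb bins.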

Additional observations from a re-analysis of the deposited data

Results flagged for a closer look

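Regions outside the chromosomes described were noted because they are signal in data that no comparison uses. On chromosome X the NC list had 2283 regions and the NONO-KD list 1057. On sequence named Y the lists had 133 and 52.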

How the results depend on the processing

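NONO-KD as a percent of NC was 51.2% at a −log10 q of at least 5, 50.4% at a pileup of at least 20, 48.5% without the 10 bins with most NONO-KD regions (chosen after the data were seen) and 157% for regions at least 2 times the narrowest width, which reverses the direction. The share of NC regions found again was 1.79% at −log10 q of at least 5, 1.76% around summits, 1.73% with lists of equal length, 12.0% for the wider regions, 0.493% with 50% overlap, 1.62% at a pileup of at least 20 and 1.84% without the 10 bins. The share at gene ends in NC was 6.27% at −log10 q of at least 5, 6.70% at a pileup of at least 20 and 6.68% by whole regions. It was 11.8% in NC and 5.62% in NONO-KD for the wider regions, and 11.7% and 8.10% within 2.5 kb. Genes in NC alone numbered 2617 with lists of equal length, and for the wider regions 216 in NC alone and 144 in NONO-KD alone. The acetylated genes differed by 11.3 points in NC with lists of equal length, by 1.19 points in NC and 0.412 in NONO-KD for the wider regions, and by 22.8 and 6.36 within 2.5 kb. Spearman's rho between the lists over bins was 0.54 with lists of equal length, 0.31 for the wider regions and 0.81 in bins of 5 Mb. In bins without genes, NONO-KD held 223% of NC with lists of equal length and 450% for the wider regions, above NC in place of below. Without the 10 bins with most NONO-KD regions it held 71.7% of NC there. The causes were not tested. The rho of the chromosome ratio with gene density stayed between -0.72 and -0.51. No paired analysis was possible because both groups are single libraries, and no replicate could be left out for the same reason. In short gene lists a count of 0 in NONO-KD within 1 kb could not be told from the share of all genes, because of the number of genes in the list.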
